A study of Mus musculus with 6 samples.

Results

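The 36 genes described here act in DNA replication and in mitosis, and were taken by symbol from the deposited count table, where all 36 were found among 55376 gene rows. Of these, 16 were placed with the transition into S phase and replication itself (called S phase genes here) and 20 with G2 and mitosis (called mitotic genes here). Cyclin A2 (Ccna2), which acts in both S phase and mitosis, was counted with the mitotic genes. All 36 passed the filter on low counts that left 18054 genes for testing.

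The study asked which mRNAs CPEB4 binds in mouse muscle stem cells. CPEB4 is a cytoplasmic RNA-binding protein that recognises polyadenylation elements in mRNAs and regulates their translation. In RNA immunoprecipitation (RIP) an antibody pulls the protein down with the RNA bound to it, a non-specific IgG antibody measures the RNA that comes down unspecifically, and the input is total RNA. The groups were 2 libraries of CPEB4 RIP, 2 of IgG RIP and 2 of input, all from muscle stem cells of C57BL/6 mice aged 3 months, isolated by fluorescence-activated sorting, and all made with SMART-seq2, a protocol that amplifies full-length cDNA of polyadenylated RNA. No genotype change or treatment was given for any group. The design text calls the CPEB4 RIP libraries biological replicates but does not say whether libraries came from separate animals or preparations, so the p-values measure the spread between these libraries.

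Before S phase, Cdc6 and Cdt1 load the MCM helicase onto replication origins, and cyclin E with Cdk2 starts replication, in which Pcna clamps the polymerase to DNA and ribonucleotide reductase supplies deoxynucleotides. Later, cyclin B with Cdk1 drives entry into mitosis, Polo and Aurora kinases build the spindle, and Cdc20 starts the exit once the spindle checkpoint is satisfied. Most muscle stem cells of an uninjured adult muscle are quiescent, and both programmes are known to be switched on when the cells are activated and divide.

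Promoters are shown for Cdk2, Rrm1 and Top2a, which passed a test below, and for Mcm6, Ccnb2 and Cdk1, which show the elements of their class. Both programmes are known to be controlled largely through a few short promoter elements. The E2F element is known from genes of S phase, and the cell cycle genes homology region (CHR), often with CCAAT boxes, from genes of G2 and mitosis. Each window spans the annotated start of the gene and lies mostly before it. The sequences are from RefSeq on build GRCm38.p6, 5′ to 3′ on the gene's own strand. Cdk2 lies at chr10:128705002-128705301 on the minus strand, Mcm6 at chr1:128359656-128359955 on the minus strand and Rrm1 at chr7:102441445-102441744 on the plus strand. Among the mitotic genes, Top2a lies at chr11:99024140-99024439 on the minus strand, Ccnb2 at chr9:70421505-70421804 on the minus strand and Cdk1 at chr10:69352863-69353162 on the minus strand. Capitals mark matches, on either strand, to an E2F element (TTTCCCGC, TTTGGCGC, TTTCGCGC or TTTGCCGC), the CHR (TTTGAA or TTCGAA) or a CCAAT box (CCAAT).
Cdk2: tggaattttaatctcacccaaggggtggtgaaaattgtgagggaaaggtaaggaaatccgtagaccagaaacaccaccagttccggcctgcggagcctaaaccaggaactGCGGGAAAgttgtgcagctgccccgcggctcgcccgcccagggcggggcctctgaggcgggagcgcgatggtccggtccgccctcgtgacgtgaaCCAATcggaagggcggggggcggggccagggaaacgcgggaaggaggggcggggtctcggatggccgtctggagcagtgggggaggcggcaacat
Mcm6: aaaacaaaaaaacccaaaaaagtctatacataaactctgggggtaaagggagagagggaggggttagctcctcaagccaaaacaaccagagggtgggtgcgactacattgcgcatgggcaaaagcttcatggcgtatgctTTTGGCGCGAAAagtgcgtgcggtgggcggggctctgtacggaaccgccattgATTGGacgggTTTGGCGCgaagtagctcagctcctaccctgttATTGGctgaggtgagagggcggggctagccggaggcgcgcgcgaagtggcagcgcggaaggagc
Rrm1: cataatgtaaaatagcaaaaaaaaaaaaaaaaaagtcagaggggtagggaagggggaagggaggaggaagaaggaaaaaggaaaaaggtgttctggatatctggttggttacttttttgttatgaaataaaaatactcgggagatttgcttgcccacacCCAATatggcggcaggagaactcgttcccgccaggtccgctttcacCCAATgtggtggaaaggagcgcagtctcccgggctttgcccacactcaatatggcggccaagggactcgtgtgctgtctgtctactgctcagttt
Top2a: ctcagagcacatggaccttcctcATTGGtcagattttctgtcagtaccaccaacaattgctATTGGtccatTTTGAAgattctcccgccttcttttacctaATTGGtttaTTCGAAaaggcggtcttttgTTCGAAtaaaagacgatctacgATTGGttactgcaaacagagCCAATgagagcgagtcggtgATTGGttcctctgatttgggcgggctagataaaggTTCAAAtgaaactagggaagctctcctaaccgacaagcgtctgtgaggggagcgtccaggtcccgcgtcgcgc
Ccnb2: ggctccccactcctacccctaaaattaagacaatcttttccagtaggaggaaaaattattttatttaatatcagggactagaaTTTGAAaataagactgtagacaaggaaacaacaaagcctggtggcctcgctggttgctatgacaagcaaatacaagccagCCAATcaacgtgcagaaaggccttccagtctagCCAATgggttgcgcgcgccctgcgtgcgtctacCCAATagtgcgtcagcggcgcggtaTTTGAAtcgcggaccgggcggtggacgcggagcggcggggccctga
Cdk1: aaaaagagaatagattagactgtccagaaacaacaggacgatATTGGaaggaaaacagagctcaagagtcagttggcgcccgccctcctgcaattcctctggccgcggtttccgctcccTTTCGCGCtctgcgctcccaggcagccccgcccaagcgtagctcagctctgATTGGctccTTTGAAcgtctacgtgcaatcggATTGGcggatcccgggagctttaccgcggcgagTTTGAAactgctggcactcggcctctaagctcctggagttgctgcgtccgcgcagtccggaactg

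In the Mcm6 window the first run of capitals holds 2 overlapping E2F matches on opposite strands. Cdk2 has an E2F match and a CCAAT box, while Rrm1 has CCAAT boxes and neither of the other elements. Top2a, Ccnb2 and Cdk1 each have CHR matches together with CCAAT boxes, and Cdk1 has an E2F match as well. A match is a description of the letters and not a bound site, and a window without one says only that these letters are not in it.

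RefSeq gave a promoter for 29 of the 36 genes, 13 S phase and 16 mitotic; those not in the table were Ccne2, Mcm4, Gins2, Ccna2, Cdc25c, Aurkb and Tpx2. Mcm7 and Prc1 had 2 promoters each, and a gene was counted if any of its promoters matched. An E2F match was found for 7 of 13 S phase genes (53.8%: Cdk2, Cdc6, Cdt1, Mcm3, Mcm5, Mcm6 and Mcm7). Of mitotic genes 1 of 16 had one (6.25%, Cdk1). The share was 4.33% of the 11676 genes tested that have a promoter in the table and 2.6% of all 27025 genes in it. The CHR was found for 2 of 13 S phase genes (15.4%, Mcm2 and Mcm7) and for 12 of 16 mitotic genes (75.0%). Among tested genes the share was 17.0%, and among all genes 21.7%. CCAAT boxes were common everywhere, with 9 of 13 S phase genes (69.2%), 14 of 16 mitotic genes (87.5%), 42.5% of tested genes and 41.1% of all genes. The CHR and a CCAAT box occurred together in a promoter of all 12 mitotic genes with a CHR (75.0% of the 16) and in 6.94% of tested genes. The mitotic genes without a CHR match were Ccnb1, Birc5, Cenpe and Nusap1. The choice of genes did not use promoter letters, and no test of these shares was made.

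**Figure D1:**
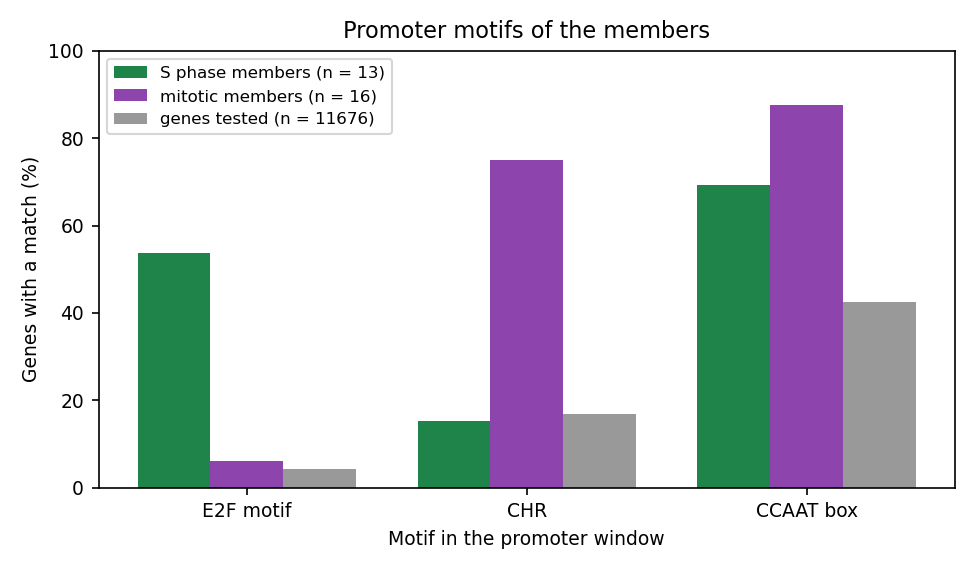
Share of genes (y axis, %) whose promoter window holds an E2F element, a CHR or a CCAAT box (x axis), for S phase members, mitotic members and genes tested. The green bar is tallest among the bars for E2F (53.8%) and the purple bar among those for the CHR (75.0%).

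Total counts were 9018323 to 20843042 per library. The 8 markers of satellite cells, the muscle stem cells of the label, had at least 1 read in every library and summed to 12500 to 18900 FPKM (fragments per kilobase, relative to a library total) in the 6 libraries. Of that sum 88.4% to 94.6% was Sdc4, the cell surface proteoglycan syndecan-4, and the other 7 markers summed to 670 to 1891 FPKM. Pax7, the transcription factor that marks these cells, was at 18.7 to 36.1 FPKM. The lists for other cells summed to 10.2 to 38.1 FPKM for leukocytes, 41.1 to 72.2 for endothelium, 30.7 to 60.7 for myofibres, 118 to 193 for smooth muscle and pericytes, 42.6 to 173 for fibro-adipogenic cells and 66.8 to 567 for erythroid cells. Of these markers 1, in the leukocyte list, had 0 counts in at least 1 library. The replicates correlated at 0.981 in the CPEB4 RIP libraries, 0.873 in the IgG RIP libraries and 0.975 in input (Pearson's r of log CPM, read counts scaled to library size with TMM factors, across the genes tested, which are not independent). Each IgG RIP library correlated better with both input libraries than with the other IgG RIP library, and IgG RIP replicate 2 had no read in 1805 tested genes, against 344 in replicate 1. For the members, calls, class medians and changes of direction against IgG RIP are therefore also given with its libraries left out. For single genes outside the set no such values are given.

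By the limit of 1 FPKM, 17 of 20 mitotic genes and 4 of 16 S phase genes were low in the input of the sorted cells. FPKM is scaled by gene length, but the lengths used were not given in the sources. Comparisons of levels between genes, and the limit of 1 FPKM, therefore rest on those lengths. With a group mean under 1 FPKM taken as low, 24 of 36 were low in the CPEB4 RIP libraries, 21 in the IgG RIP libraries and 21 in input. In input this was 58.3% of the members, beside 46.1% of all genes tested. The number depends on the limit, as 9 of 36 were low in input under 0.5 FPKM and 1 of 36 under 1 CPM. Shares of all genes tested at these other limits are not given here. The filter on low counts, which all 36 passed, itself limits how many can lie under 1 CPM. Split by phase, low S phase genes numbered 7 of 16 in the CPEB4 RIP libraries, 5 in the IgG RIP libraries and 4 in input. Low mitotic genes numbered 17 of 20 in the CPEB4 RIP libraries, 16 in the IgG RIP libraries and 17 in input.

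The median input level was 2.06 FPKM for S phase genes and 0.55 FPKM for mitotic genes, on either side of 1.24 FPKM for the genes tested. A level of at least 1 FPKM in all 6 libraries was reached by 9 S phase genes (Cdk2, Mcm3, Mcm4, Mcm6, Mcm7, Pcna, Rrm1, Rrm2 and Tyms) and 2 mitotic genes (Ccnb2 and Cdc20). Under 1 FPKM in all 6 libraries were 2 S phase genes (Cdc6 and Mcm2) and 10 mitotic genes (Ccna2, Cdc25c, Plk1, Aurkb, Bub1, Bub1b, Cenpe, Cenpf, Prc1 and Mki67). At or above 1 FPKM in every library were thus 30.6% of members, beside 43.3% of genes tested, and below it in every library 33.3% of members, a share near the 34.4% of genes tested. Several members lay near the limit: in input the nearest above were Top2a (1.05), Ccne1 (1.10) and Ccne2 (1.10), and the nearest below were Tpx2 (0.84), Birc5 (0.77) and Gins2 (0.74 FPKM). In bulk RNA, fewer dividing cells and less of an RNA in each cell cannot be told apart.

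**Figure D2:**
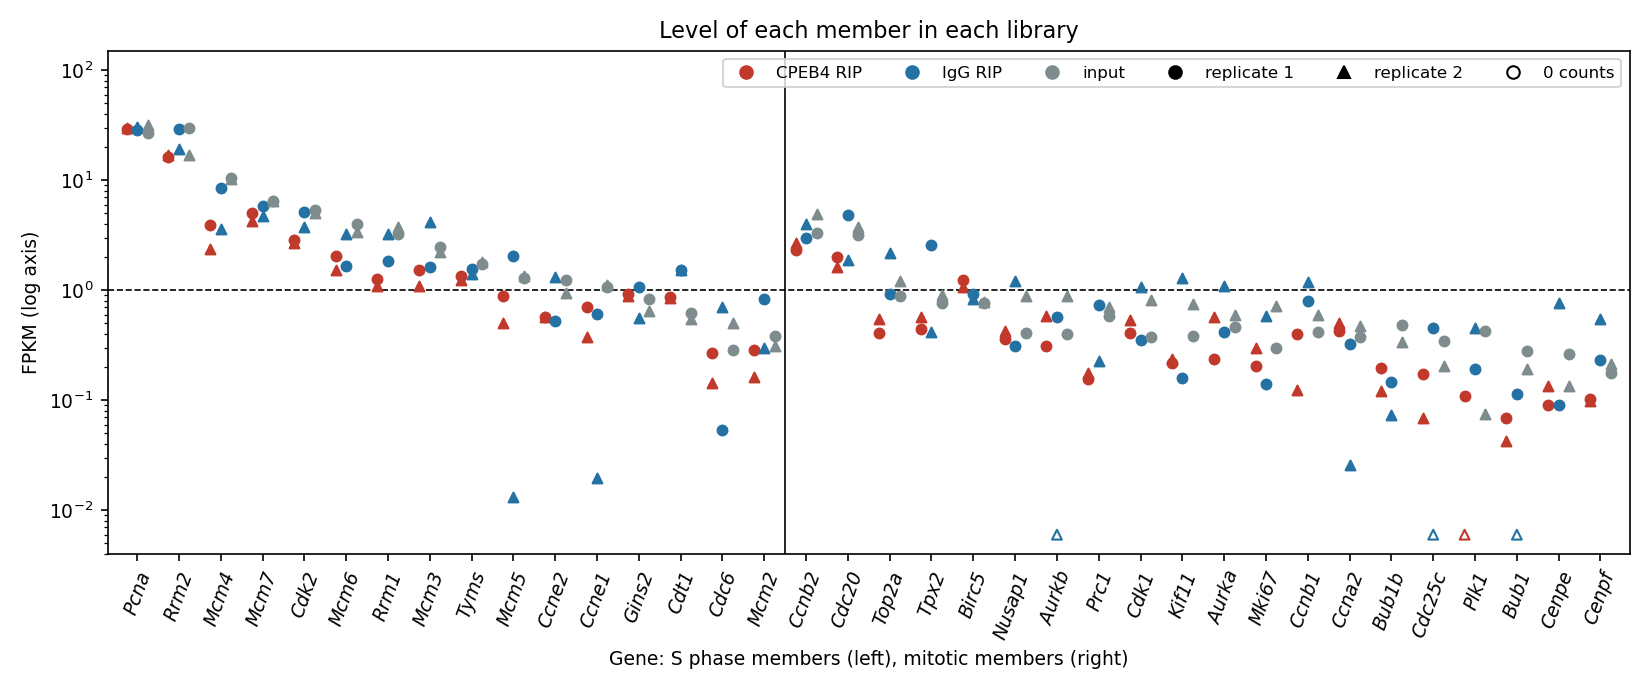
FPKM of each of the 36 members (x axis, S phase left of the vertical line, mitotic right, each in order of input level) in each library, on a log y axis, with the dashed line at 1 FPKM. Open symbols at the foot mark 0 counts; 12 S phase members and 3 mitotic members average at least 1 FPKM in input.

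Among the S phase genes the highest levels were those of Pcna and Rrm2. Pcna, the sliding clamp, had 28.9 and 29.5 FPKM in the CPEB4 RIP libraries, 28.8 and 30.7 in the IgG RIP libraries, and 27.0 and 31.8 in input. The RIP libraries all lay within the range of the input pair. Its input mean stood at percentile 93.6 of the genes tested. Rrm2, the regulated subunit of ribonucleotide reductase, had 16.35 and 16.97 FPKM in the CPEB4 RIP libraries, 29.11 and 19.03 in the IgG RIP libraries, and 29.95 and 17.04 in input. Its CPEB4 RIP libraries were below all others, with input replicate 2 just above them. Reads of Pcna could be shared with its pseudogene copy Pcna-ps2, which had 46 to 115 counts per library against 985 to 1898 for Pcna.

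The subunits of the MCM helicase act as a ring of 1 copy each, yet their mRNAs differed widely in level. Input means were 10.3 FPKM for Mcm4, 6.51 for Mcm7, 3.68 for Mcm6, 2.34 for Mcm3, 1.32 for Mcm5 and 0.35 for Mcm2. No input replicate of one subunit overlapped with the range of its neighbour in that order. The factors that load the ring were low, with input means of 0.39 FPKM for Cdc6 and 0.59 FPKM for Cdt1. Gins2, a subunit of the complex that activates the helicase, was at 0.74 FPKM, and thymidylate synthase (Tyms) at 1.78 FPKM. Cdk2 was at 5.21 FPKM while its cyclins Ccne1 and Ccne2 were both at 1.10 FPKM. Read counts of 13 of the 36 members, Cdk2, Mcm7, Top2a and Cdc20 among them, may include reads of RefSeq genes that overlap them, as the strand setting of the counting was not given in the sources used here.

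Among the mitotic genes Ccnb2 and Cdc20 stood apart. Ccnb2, a B-type cyclin, had 2.33 and 2.68 FPKM in the CPEB4 RIP libraries, 2.98 and 3.97 in the IgG RIP libraries, and 3.34 and 4.97 in input. Cdc20, the activator of the anaphase-promoting complex, had 2.01 and 1.64 FPKM in the CPEB4 RIP libraries, 4.81 and 1.88 in the IgG RIP libraries, and 3.16 and 3.74 in input. In both genes each CPEB4 RIP library was below both input libraries. Ccnb1, the other B-type cyclin, averaged 0.51 FPKM (2.98 CPM) in input, and the partner kinase of both cyclins, Cdk1, 0.59 FPKM (4.09 CPM). The proliferation marker Mki67 had 0.20 and 0.30 FPKM in the CPEB4 RIP libraries, 0.14 and 0.58 in the IgG RIP libraries, and 0.30 and 0.72 in input, under 1 FPKM in every library.

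Kinases and checkpoint genes of mitosis stood between percentile 18.1 (Bub1) and 37.2 (Aurkb) of the input levels of genes tested. Input means were 0.25 FPKM for Plk1, 0.53 for Aurka, 0.64 for Aurkb, 0.24 for the checkpoint kinase Bub1 and 0.41 for Bub1b. The kinetochore genes Cenpe (0.20) and Cenpf (0.19 FPKM) were lowest of all 36 by FPKM. Spindle genes were slightly higher, with Kif11 at 0.57, Prc1 at 0.64, Nusap1 at 0.65 and Tpx2 at 0.84 FPKM. In CPM, which is not scaled by length, the input mean of Plk1 (0.77) was below those of Cenpe (2.40) and Cenpf (4.18). At this level the counts behind a value are small: Plk1 had 4 and 0 counts in the CPEB4 RIP libraries, 6 and 19 in the IgG RIP libraries, and 24 and 3 in input. Counts of 0 were found for Plk1 in CPEB4 RIP replicate 2, where they allow up to 0.158 CPM (3 counts), and for Cdc25c, Aurkb and Bub1 in IgG RIP replicate 2, where they allow up to 0.227 CPM. These floors cover counting error only, as the reads carry no molecular identifiers.

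Summed over each class, S phase genes outweighed mitotic genes in every library. The ratio of summed FPKM, S phase over mitotic, was 6.86 and 6.16 in the CPEB4 RIP libraries, 5.24 and 4.40 in the IgG RIP libraries, and 6.61 and 4.54 in input. Each group's mean was 6.51 ± 0.50 in the CPEB4 RIP libraries, 4.82 ± 0.59 in the IgG RIP libraries and 5.58 ± 1.46 in input (SD, n = 2). Both RIP groups overlapped with input in this ratio, and the CPEB4 RIP ratios were above both IgG RIP ratios. Pcna and Rrm2 alone made up 56.0% to 72.4% of the S phase sum, and without both genes the ratio was 2.28 and 1.70 in the CPEB4 RIP libraries, 1.89 and 1.61 in the IgG RIP libraries, and 2.71 and 1.996 in input.

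Both classes took a smaller part of the reads in CPEB4 RIP than in either other group. S phase genes summed to 306 and 290 CPM in the CPEB4 RIP libraries, 467 and 397 CPM in the IgG RIP libraries, and 475 and 446 CPM in input. Mitotic genes summed to 48.2 and 54.1 CPM in the CPEB4 RIP libraries, 97.7 and 123 CPM in the IgG RIP libraries, and 77.2 and 106 CPM in input. In both classes the CPEB4 RIP libraries lay below the other 4 without overlap, while IgG RIP and input overlapped in the mitotic sum and in the S phase sum. With 2 libraries a group, an exact permutation test of such a sum cannot pass 0.05 and none was made.

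**Figure D3:**
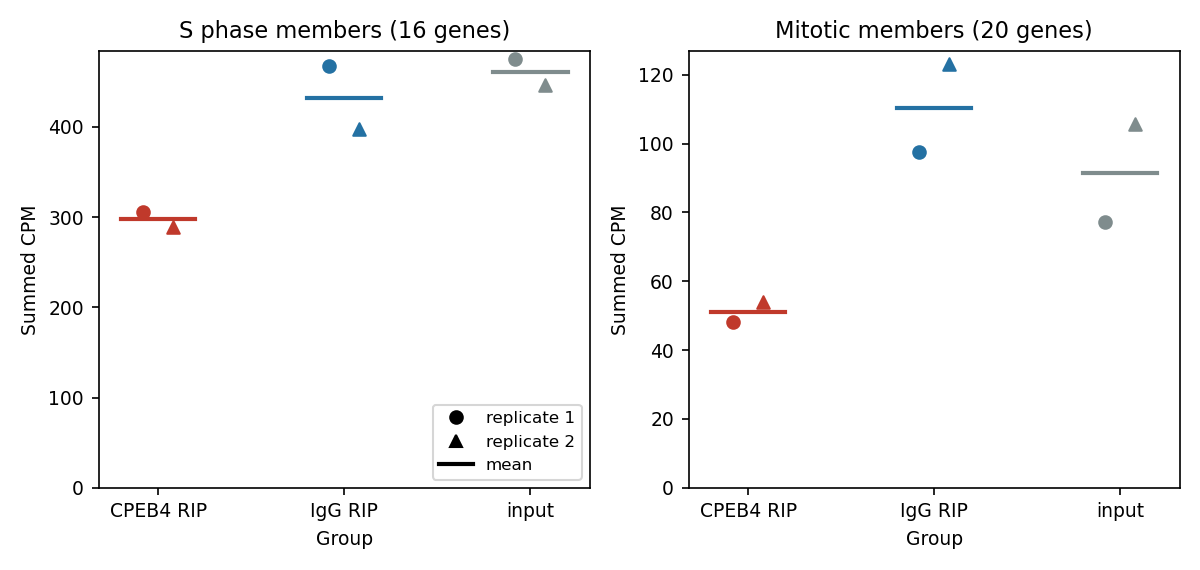
Summed CPM (y axis, from 0) of the 16 S phase members (left) and the 20 mitotic members (right) in each library, by group (x axis), with the mean of each group as a line. Both CPEB4 RIP libraries lie below the 4 others in each panel, at 306 and 290 CPM for S phase and 48.2 and 54.1 CPM for mitotic genes.

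Setting CPEB4 RIP against IgG RIP asks which RNAs came down with CPEB4 beyond the unspecific background. None of the 36 genes was higher in CPEB4 RIP at an adjusted p under 0.05 (edgeR's quasi-likelihood test, Benjamini-Hochberg over 18054 genes), against 4.79% of the genes tested. The count of higher genes was 0 by the DESeq2 Wald test too, and none of the 8 members with an unadjusted p under 0.05 (22.2%, against 26.8% of the genes tested) was higher. Rrm1 and Top2a were lower, 2 of 36 or 5.56%, against 3.42% of the genes tested that were lower and 8.21% called in either direction. This share of the members is near the background.

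Rrm1, the large subunit of ribonucleotide reductase (chr7:102441695-102469771, GRCm38.p6), had 1.26 and 1.09 FPKM in the CPEB4 RIP libraries, 1.82 and 3.21 in the IgG RIP libraries, and 3.26 and 3.73 in input. The CPEB4 RIP libraries were lowest, without overlap. Its log2 fold change, CPEB4 RIP over IgG RIP, was -1.19 (SE 0.28, edgeR adjusted p = 0.04197). Top2a, the topoisomerase that untangles sister chromatids (chr11:98992947-99024199), had 0.41 and 0.54 FPKM in the CPEB4 RIP libraries, 0.93 and 2.16 in the IgG RIP libraries, and 0.88 and 1.21 in input. Here too the CPEB4 RIP pair was lowest without overlap, with a log2 fold change of -1.77 over IgG RIP (SE 0.44, edgeR adjusted p = 0.04994). Each call passed in 9 of 17 alternative settings, with adjusted p from 2.23e-06 to 0.421 for Rrm1 and from 8e-08 to 0.371 for Top2a. Both calls were lost when any 1 CPEB4 RIP or input library was left out, when only the 4 libraries compared were fitted, and with limma on FPKM. Both passed without either IgG RIP library, but without IgG RIP replicate 2 the value shrank to -0.63 for Rrm1 and -0.93 for Top2a.

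Most other members also lay below IgG RIP in the fit without passing. The fitted log2 fold change was below 0 for 30 of 36 members (83.3%), beside 52.9% of the genes tested. Its median was -0.73 for S phase genes and -1.002 for mitotic genes, beside -0.07 for all genes tested; the difference between the classes was not tested. These medians rest on the IgG RIP libraries, since that of S phase genes was -0.22 without IgG RIP replicate 1 and that of mitotic genes -0.27 without IgG RIP replicate 2. On the CPM scale both CPEB4 RIP libraries were below both IgG RIP libraries for 14 of 36 genes (8 S phase, 6 mitotic), against 25.5% of the genes tested, and above both for 2 (Birc5 and Ccna2), against 29.4%. Among the genes that did not pass, the largest fitted differences in the mitotic class were those of Plk1 (-2.73), Ccnb1 (-2.04), Cenpf (-2.03) and Cenpe (-1.98). Cenpe had 13 and 31 counts in the CPEB4 RIP libraries against 11 and 126 with IgG, and its value turned to 0.37 without IgG RIP replicate 2. Cenpf had an edgeR adjusted p of 0.0542 and Cdk2, the nearest S phase gene, 0.07734 with a log2 fold change of -0.78. Pcna was nearly level at -0.12 (SE 0.16), and Mcm7 (-0.27) and Tyms (-0.28) were close to it.

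Birc5 and Ccna2, the genes with CPEB4 RIP above both IgG RIP libraries, did not pass. Birc5, which encodes survivin of the chromosomal passenger complex, had 1.23 and 1.08 FPKM in the CPEB4 RIP libraries, 0.93 and 0.83 in the IgG RIP libraries, and 0.76 and 0.78 in input. It was the only member whose CPEB4 RIP libraries lay above all 4 others, and its log2 fold change was 0.29 (SE 0.42) over IgG RIP and 0.56 (SE 0.42) over input, with edgeR adjusted p of 0.6847 and 0.4142. Ccna2 had 0.43 and 0.50 FPKM in the CPEB4 RIP libraries, 0.33 and 0.03 in the IgG RIP libraries, and 0.38 and 0.48 in input. Only IgG RIP replicate 2, with 2 counts, was far from the rest.

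The level in input before pull-down served as the second comparison, which shares the CPEB4 RIP libraries with the first. None of the 36 genes was higher than input by edgeR's test (8% of the genes tested), by DESeq2, or among the 6 members with an unadjusted p under 0.05 (16.7%, against 28.1% of the genes tested). Rrm1, Mcm4 and Cdk2 were lower, 3 of 36 or 8.33%, against 4.7% of the genes tested that were lower and 12.7% called in either direction. All 3 are S phase genes. Of the mitotic genes 0 of 20 passed in edgeR, 2 had an unadjusted p under 0.05 and 2 passed in DESeq2; whether the classes differ was not tested.

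Rrm1, with its values given above, had a log2 fold change of -1.58 over input (SE 0.28, edgeR adjusted p = 0.01184). Mcm4, a subunit of the replicative helicase (chr16:15623897-15637400), had 3.89 and 2.37 FPKM in the CPEB4 RIP libraries, 8.46 and 3.64 in the IgG RIP libraries, and 10.4 and 10.2 in input. Its CPEB4 RIP libraries lay far below both input libraries but overlapped with IgG RIP, whose replicate 2 was almost as low. The log2 fold change over input was -1.73 (SE 0.42, edgeR adjusted p = 0.03645), beside -1.06 over IgG RIP (adjusted p = 0.1587). Cdk2, the kinase of cyclin E (chr10:128697938-128705051), had 2.84 and 2.66 FPKM in the CPEB4 RIP libraries, 5.08 and 3.75 in the IgG RIP libraries, and 5.41 and 5.01 in input. Its CPEB4 RIP pair agreed closely and was lowest, with a log2 fold change of -0.93 over input (SE 0.23, edgeR adjusted p = 0.03676). These 3 calls passed in 12 of 17 alternative settings each, with adjusted p from 6.83e-10 to 0.182 for Rrm1, from 2.26e-10 to 0.306 for Mcm4 and from 0.000125 to 0.385 for Cdk2. They were lost when any 1 CPEB4 RIP or input library was left out, which leaves that group with 1 library, and with limma on FPKM without a filter.

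Below input in the fit were 32 of 36 members (88.9%), beside 52.2% of the genes tested, and the median log2 fold change was -0.89 for S phase genes and -0.94 for mitotic genes, beside -0.06 for all genes tested. On the CPM scale the CPEB4 RIP libraries were below both input libraries for 25 members (13 S phase, 12 mitotic), against 37.6% of the genes tested, and above both for 3 (Gins2, Cdt1 and Birc5), against 34.4%. Prc1, which bundles microtubules of the central spindle, had 0.15 and 0.18 FPKM in the CPEB4 RIP libraries, 0.73 and 0.23 in the IgG RIP libraries, and 0.58 and 0.70 in input. Its log2 fold change over input of -1.95 (SE 0.61) was the largest mitotic one with an unadjusted p under 0.05 but had an edgeR adjusted p of 0.08254. Cdt1 had 0.87 and 0.84 FPKM in the CPEB4 RIP libraries, 1.52 and 1.54 in the IgG RIP libraries, and 0.63 and 0.55 in input, so CPEB4 RIP was between IgG RIP and input with no overlap. Pcna was level with input at -0.02 (SE 0.16).

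**Figure D4:**
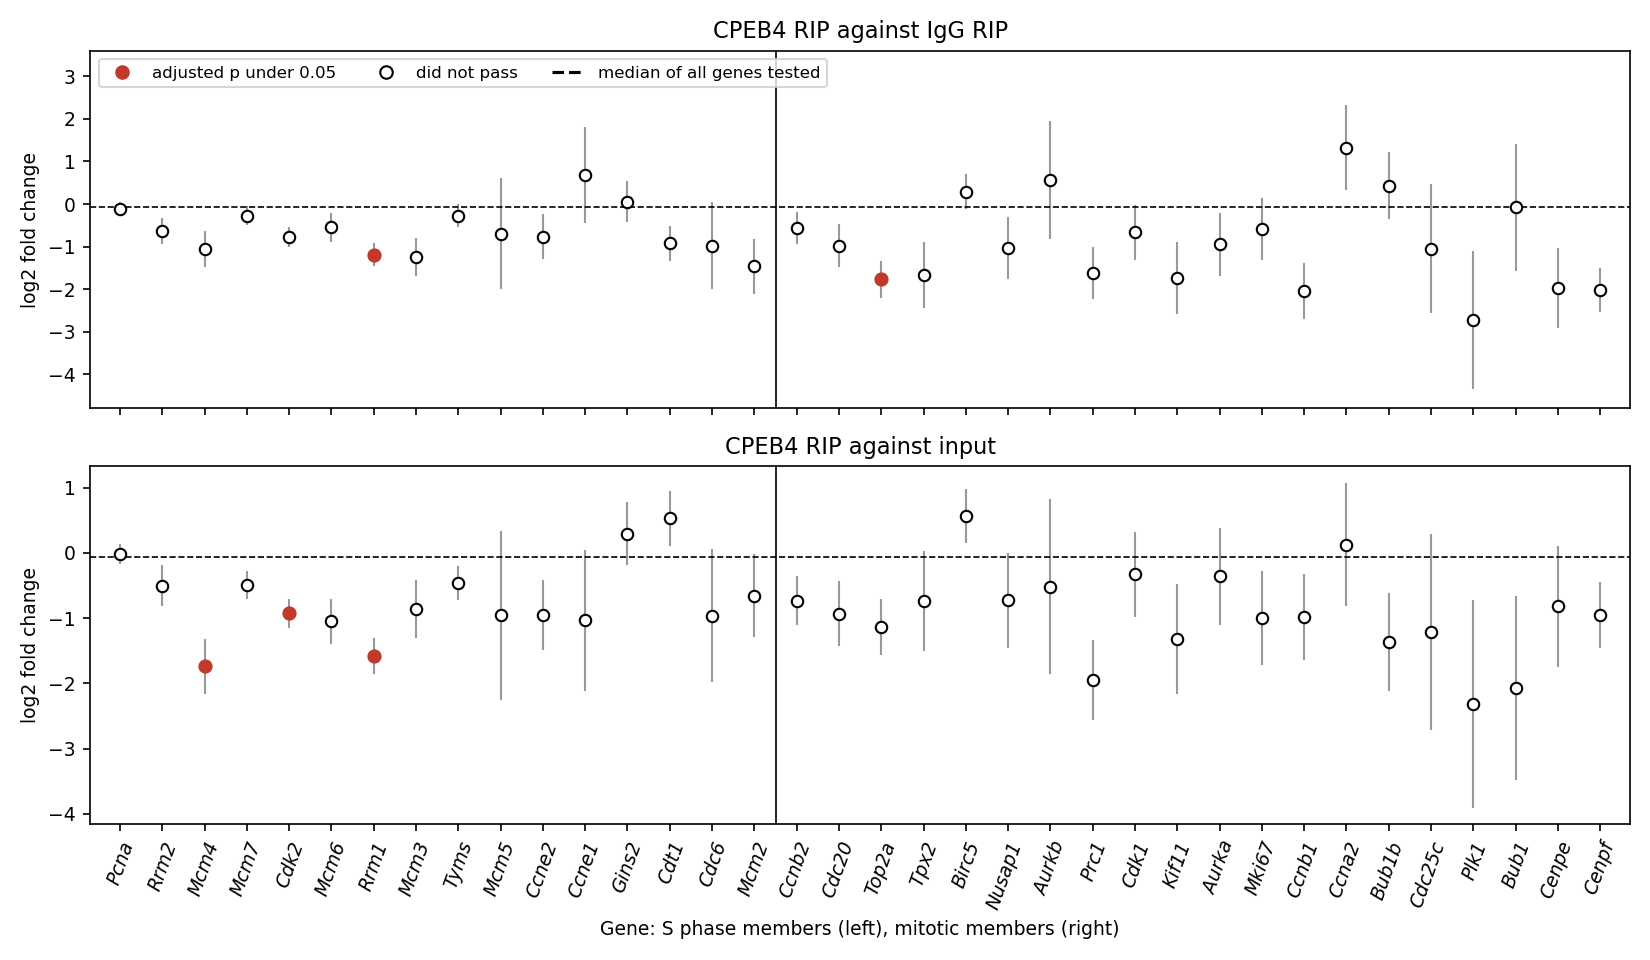
Fitted log2 fold change (y axis) of each member (x axis, S phase left, mitotic right) for CPEB4 RIP over IgG RIP (upper panel) and over input (lower panel); bars are 1 SE, filled points passed the test over all genes, and the dashed line is the median of all genes tested. Only Rrm1 and Top2a are filled in the upper panel and Mcm4, Cdk2 and Rrm1 in the lower, and 30 and 32 of the 36 points lie below 0.

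IgG RIP was set against input to show what pull-down without a specific antibody did to the same genes. Of the 36 members 0 passed in edgeR, as did 0 of 18054 genes (0%), although 2550 genes (14.1%) had an unadjusted p under 0.05, of the members only Cdt1. DESeq2 called 706 genes and no member, with 17 members left without an adjusted p. The median log2 fold change was -0.17 for S phase genes and 0.29 for mitotic genes, beside 0.05 for all genes tested. Without IgG RIP replicate 2 the mitotic median was -0.30, so its direction rests on that library. Cdt1 had a log2 fold change of 1.46 (SE 0.42, edgeR adjusted p = 0.2253), with both IgG RIP libraries above both input libraries.

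The members showed how far the 2 IgG RIP libraries were apart. Between replicates of CPEB4 RIP 0 of 36 members differed over 4-fold, between those of IgG RIP 8 did, and between those of input 0 did (CPM with 0.5 added). The 8 genes (22.2% of the members, beside 9.7% of the genes tested) were Ccne1, Cdc6, Mcm5, Cdc25c, Aurkb, Tpx2, Kif11 and Cenpe, of which 3 (Cdc6, Kif11 and Cenpe) were higher in replicate 2. Mcm5 had 58 and 54 counts in the CPEB4 RIP libraries, 117 and 1 in the IgG RIP libraries, and 132 and 97 in input. Kif11, the motor that separates spindle poles, had 27 and 47 counts in the CPEB4 RIP libraries, 17 and 183 in the IgG RIP libraries, and 73 and 101 in input. The median absolute log2 ratio between replicates over the members was 0.31 in the CPEB4 RIP libraries, 1.18 in the IgG RIP libraries and 0.29 in input. Leaving out a library changes the estimate of the spread, the genes kept and the scaling. Which of these moved the calls given next was not tested. As all 6 libraries share 1 estimate of the spread per gene, the distance between the IgG RIP libraries also enters the test against input: without IgG RIP replicate 1, 14 members were lower than IgG RIP (38.9%, against 13.4% of all genes), 5 higher (13.9%, against 23.6%), and 16 lower than input (44.4%, against 18.1%). The 5 higher genes were Ccne1, Mcm5, Ccna2, Cdc25c and Aurkb, which had 0 to 2 counts in the remaining IgG RIP library. Without IgG RIP replicate 2, 13 members were lower than IgG RIP (36.1%, against 16.5%), 0 higher (against 18.5%), and 14 lower than input (38.9%, against 17.9%).

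**Figure D5:**
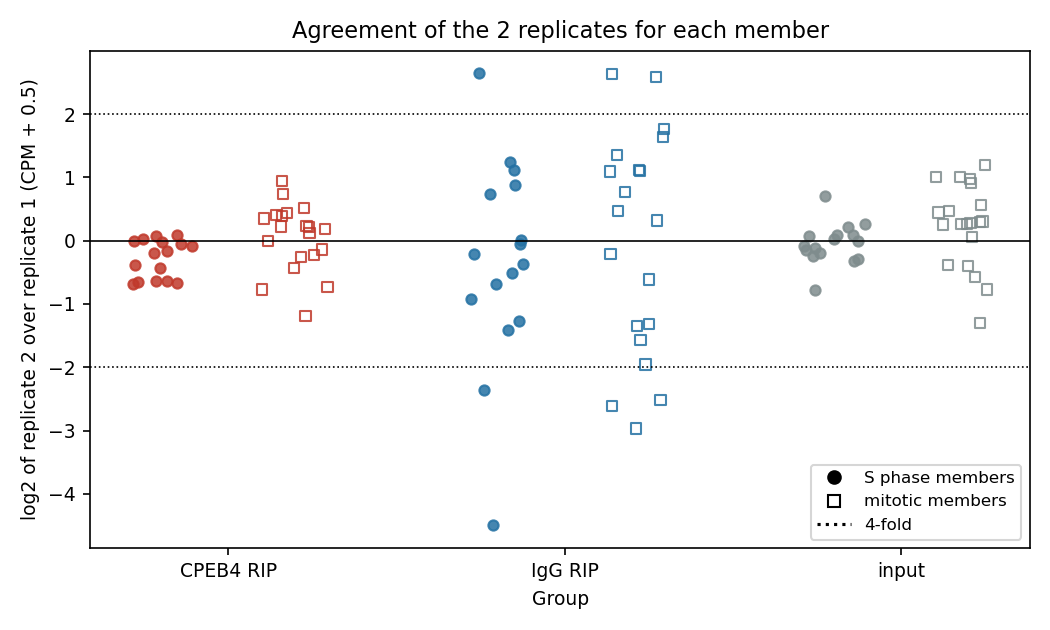
Log2 ratio of replicate 2 over replicate 1 (y axis, CPM with 0.5 added) of each member, by group (x axis), with S phase members as filled circles and mitotic members as open squares, spread sideways for legibility; dotted lines mark 4-fold. Beyond these lines lie 0 of 36 members in the CPEB4 RIP libraries, 8 in the IgG RIP libraries and 0 in input.

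In lists of related genes outside the set, the shares called were near or below those of all genes tested (3.42% lower and 4.79% higher than IgG RIP, 4.7% lower and 8% higher than input). Of 44 other replication genes (origin recognition, polymerases, clamp loader, nucleotide supply and histone supply), 0 were higher and 1 lower (2.27%) than IgG RIP, and 0 higher and 1 lower (2.27%) than input. The lower gene was Slbp in both, which encodes the binding protein of histone mRNA stem-loops. It had 9.22 and 10.4 FPKM in the CPEB4 RIP libraries, 14.8 and 20.3 in the IgG RIP libraries, and 16.1 and 20.1 in input, lowest in CPEB4 RIP without overlap, with log2 fold changes of -0.93 (edgeR adjusted p = 0.03552) and -0.89 (0.02797). Of 45 other mitosis genes, 1 was higher (2.22%) and 0 lower than IgG RIP, and 0 higher and 2 lower (4.44%) than input. The higher gene was Ccnf, a cyclin that serves as an F-box protein, with 41 and 41 counts in the CPEB4 RIP libraries, 3 and 1 in the IgG RIP libraries, and 61 and 43 in input. Its ratio of summed counts scaled by library size was 14.9 over IgG RIP (95% interval 5.61 to 56.0, counting error only, edgeR adjusted p = 0.03653), and its level was not above input. Lower than input were Ckap2, a spindle protein (log2 fold change -1.59, edgeR adjusted p = 0.04197), and Bub3 of the spindle checkpoint (-0.66, adjusted p = 0.04645). As in the members, fitted values in both lists leaned lower. Over IgG RIP 70.5% of other replication and 68.9% of other mitosis genes were below 0, beside 52.9% of genes tested. Over input these shares were 77.3% and 80%, beside 52.2%. Their median log2 fold changes were -0.49 and -0.58 over IgG RIP, and -0.45 and -1.01 over input. Those of all genes tested were -0.07 and -0.06.

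Some of the lists of cell markers had higher sums in CPEB4 RIP. Marker calls are counted here in either direction. Of all genes tested, 8.21% were called in either direction against IgG RIP and 12.7% against input. Erythroid markers summed to 272 to 567 FPKM in the CPEB4 RIP libraries, 66.8 to 120 in the IgG RIP libraries and 91.3 to 150 in input, and 2 of 3 passed the test against each other group. Fibro-adipogenic markers summed to 105 to 173 FPKM in the CPEB4 RIP libraries, 58.5 to 101 in the IgG RIP libraries and 42.6 to 70.1 in input, with 0 of 4 passing against IgG RIP and 2 of 4 against input. Of 4 endothelial markers 0 passed against IgG RIP and 1 against input, and no leukocyte, myofibre or smooth muscle and pericyte marker passed in edgeR in either comparison. Satellite cell markers summed to 17700 to 18900 FPKM in the CPEB4 RIP libraries, 15700 to 16300 in the IgG RIP libraries and 12500 to 12700 in input, with 1 of 8 passing against IgG RIP and 4 of 8 against input. Without Sdc4 the sums were 1192 and 1609.5 FPKM in the CPEB4 RIP libraries, 964 and 1891 with IgG, and 670 and 1036 in input. The CPEB4 RIP sums without Sdc4 thus overlapped with IgG RIP and lay above both input libraries. Pax7 had 36.1 and 32.1 FPKM in the CPEB4 RIP libraries, 21.2 and 33.4 with IgG, and 18.7 and 21.1 in input. Myf5 had 968 and 1397 FPKM in the CPEB4 RIP libraries, 689 and 1598 with IgG, and 407 and 784 in input. For both genes CPEB4 RIP overlapped with IgG RIP and lay above both input libraries. The part of these differences in the lower share of replication and mitosis genes was not tested. Cpeb4 mRNA itself had 1.14 to 3.34 FPKM in the 6 libraries, and both of these ends were IgG RIP libraries.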

How the data were processed

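RNA of 6 libraries was sequenced paired-end, per the labels. HISAT2, featureCounts and mm10 are named per the submitters' processing notes. Tool versions, annotation, strandedness and the handling of reads with several matches were not given in the sources used here. Raw counts per gene were deposited without scaling. FPKM values were deposited beside them, made by the authors with an unstated tool, library total and set of gene lengths.

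The main test used edgeR 4.0.16 (R 4.3.3): filterByExpr (minimum count 10, minimum total 15), TMM scaling, and a quasi-likelihood fit (glmQLFit, glmQLFTest) with group as the only term over all 6 libraries, with 3 residual degrees of freedom. Tests were two-sided and adjusted by Benjamini-Hochberg over all 18054 genes, with a threshold of 0.05. SE is the absolute log2 fold change divided by the square root of the F statistic. CPM uses the TMM factors, and levels of different genes are compared mainly in FPKM. Low means under 1 FPKM. All 36 members could be named, and of the other lists at most 3 genes per list and comparison that passed. The members and lists were chosen with earlier results of these data known. Positions and promoters come from RefSeq tables (GRCm38.p6), matched by symbol. Total counts of 9018323 to 20843042 limit counting error only. Alternatives were other scalings, filters, DESeq2 1.42.0, limma 3.58.1 on log2(FPKM + 1) and log2(FPKM + 0.1), fewer libraries and a term for replicate number. Of these steps only the edgeR fit was tested on simulated counts, for CPEB4 RIP against IgG RIP.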

Additional observations from a re-analysis of the deposited data

How the results depend on the processing

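With 2 libraries a group, calls among these genes moved with the choice of test and library. The number of members lower than IgG RIP (2 as reported) was 4 without the low-count filter (2.01% of all genes were lower there, against 3.42% as reported), 4 with a mean count of at least 20 (8.35%), 5 with DESeq2 (7.48%), 0 with only the 4 libraries compared and 0 with limma on log2(FPKM + 1), on log2(FPKM + 0.1) and on log2(FPKM + 1) without a filter. It was 0 to 14 with 1 library left out, and the number higher was 0 to 5. The number lower than input (3 as reported) was 6 with DESeq2 (8.13%), 15 with only the 4 libraries compared (where 22.4% of all genes were lower) and 0 with limma without a filter, and 0 to 16 with 1 library left out. Against input, IgG RIP had 0 to 7 members higher and 0 to 9 lower with 1 library left out, both highest without IgG RIP replicate 1 (19.4% and 25% of members, against 11% and 20.9% of all genes). The cause of these changes was not tested.

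Medians of the log2 fold change over IgG RIP were -0.2671 (S phase) and -0.377 (mitotic) with limma on log2(FPKM + 1), -0.4316 (S phase) with log2(FPKM + 0.1), and -0.2671 and -0.3108 without a filter. Over input they were -0.4356 and -0.2762, -0.6636 (mitotic), and -0.4176 and -0.2327 under those settings. The pseudocount shrinks low genes by construction. Library size alone gave -1.106 for S phase genes over input and moved the median of all genes to -0.273, against -0.056 as reported, so members stood lower relative to that shift under both scalings. With 1 library left out, medians over IgG RIP were -0.6211 to -0.2162 (S phase) and -1.014 to -0.2677 (mitotic), that of S phase genes over input was -0.9087 to -0.5363, and those of IgG RIP over input were -0.3363 to -0.1349 (S phase) and -0.3044 to 0.3039 (mitotic).

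Low members in input numbered 9 under a limit of 0.5 FPKM and 1 under a limit of 1 CPM, without shares of all genes beside them. The ratio of S phase to mitotic sums in input (5.58 as reported) was 3.821 without Pcna and 3.961 from medians.

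No called member changed direction. Among the others, signs changed under another setting for Gins2 over IgG RIP (-0.05393 with library size alone, -0.04188 with a mean count of at least 20), Bub1 over IgG RIP (0.04335 without the low-count filter, 0.001509 with unfiltered limma), Mcm5 over IgG RIP (0.6384 with log2(FPKM + 0.1)), Ccna2 over input (-0.08166 with library size alone, -0.01885 with a mean count of at least 20) and Pcna over input (0.09774 without the low-count filter). With 1 library left out, log2 fold changes over IgG RIP crossed 0 for Ccne1 (-0.1986 to 4.71), Ccne2 (-1.066 to 0.1322), Cdc6 (-1.695 to 1.869), Mcm5 (-1.599 to 5.654), Mcm6 (-0.7553 to 0.1064), Mcm7 (-0.3143 to 0.1023), Gins2 (-0.2364 to 0.8208), Pcna (-0.09994 to 0.129), Tyms (-0.25 to 0.01751), Cdk1 (-1.023 to 0.4311), Cdc25c (-1.988 to 6.627), Aurka (-1.716 to 0.03914), Aurkb (-0.3044 to 7.888), Bub1 (-1.029 to 5.4), Cdc20 (-1.402 to 0.07268), Tpx2 (-2.326 to 0.4248), Kif11 (-2.36 to 0.519), Cenpe (-2.591 to 0.3697), Nusap1 (-1.474 to 0.3473) and Mki67 (-1.05 to 0.8874). Over input they did so for Pcna (-0.1227 to 0.1356), Ccna2 (-0.02634 to 0.3705), Cdk1 (-0.7743 to 0.3582), Aurka (-1.099 to 0.2514) and Aurkb (-1.02 to 0.1897). The widest of these values are set against an IgG RIP library with 0 or 1 counts and are no bounds. Where a group was left with 1 library, that library was assumed to vary like the others.

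A replicate block left the reported counts at 2 lower than IgG RIP and 3 lower than input, and changed the sign of Mcm5 (0.03106) and Bub1 (0.4066) over IgG RIP. Libraries of the same number did not deviate together (correlations of 0.133, -0.016 and 0.0697 between pairs of groups), so the numbers were not taken as pairs. Members with under 10 counts numbered 2 and 3 in the CPEB4 RIP libraries, 4 and 7 with IgG, and 0 and 1 in input, and did not follow total counts: IgG RIP replicate 2, with the 7, had 14225502 counts.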
